A study of Mus musculus with 24 samples.

Results

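The core of endoplasmic reticulum (ER)-associated degradation was followed here as 10 mouse genes: Herpud1, Derl1, Derl2, Derl3, Sel1l, Syvn1, Edem1, Edem2, Edem3 and Selenos, for which Vimp is an older name. Each was read by the probe whose accession belongs to the gene, taking the probe with the highest mean log2 signal over the 24 arrays where a gene had several. All 10 had a probe and all 10 were among the 14466 genes tested, of 20166 genes named on the array. RNA of mouse embryonic fibroblasts (MEFs, cells grown out of embryos) was measured on one-colour arrays, 1 sample per array. The design set the response to ER stress in wild-type cells against that of cells in which the PERK arm of the unfolded protein response was broken at different steps. Tunicamycin, which blocks N-glycosylation and so loads the ER with misfolded proteins, was used at 2 µg per mL for 12 h (12 or 24 h in the protocol text common to all samples).

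The groups were tunicamycin-treated and untreated wild-type cells (4 arrays each), and tunicamycin-treated and untreated PERKKO cells (Perk-null, 2 arrays each), which lack the ER kinase that phosphorylates the translation factor eIF2α. ATF4KO cells (Atf4-null) lack the transcription factor made when eIF2α is phosphorylated, and eIF2a A/A cells carry the S51A form of eIF2α that cannot be phosphorylated; each had 2 treated and 2 untreated arrays. Tg(Fv2E-PERK) cells carry a PERK fusion that a dimerizing compound switches on without ER stress. They were given AP, named only by that abbreviation and with no dose, for 12 h or left untreated, with 2 arrays each. The labels do not say whether a genotype is 1 clone, what drives the fusion, whether those cells keep their own PERK, or whether replicates were separate cultures. The p-values thus cover no more than the scatter among these samples, and that may be technical. Replicate 2 of the untreated Perk-null cells has a file name that says 24 h mock, against its label.

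As background, ER-associated degradation finds proteins that fail to fold in the ER, moves them across its membrane and hands them to the proteasome. EDEM proteins trim mannose from the sugar chains of such proteins, the ubiquitin ligase HRD1 (gene Syvn1) with its partner SEL1L forms the membrane complex that receives them, and the Derlins, HERPUD1 and the selenoprotein SELENOS help build the exit route and recruit the ATPase p97. The unfolded protein response raises many of these genes: IRE1 acts through XBP1, ATF6 acts directly, and PERK acts through eIF2α and ATF4.

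Promoters of 4 members are shown because they held a complete element known from unfolded protein response promoters or at least 3 copies of its core CCACG. They are the 250 bases upstream of the gene's start, 5′ to 3′ on the gene's strand, from RefSeq on GRCm38.p6. Herpud1 lies at chr8:94386179-94386428, Derl3 at chr10:75893148-75893397, Syvn1 at chr19:6046326-6046575 and Selenos at chr7:66079399-66079648, all on the + strand. Capitals mark matches to ERSE (CCAAT and CCACG, 9 bases apart), ERSE-II (ATTGG and CCACG, 1 base apart), CCACG alone, and the ATF4 and C/EBP composite element (TGATG, 1 base, AA), on either strand.
Herpud1: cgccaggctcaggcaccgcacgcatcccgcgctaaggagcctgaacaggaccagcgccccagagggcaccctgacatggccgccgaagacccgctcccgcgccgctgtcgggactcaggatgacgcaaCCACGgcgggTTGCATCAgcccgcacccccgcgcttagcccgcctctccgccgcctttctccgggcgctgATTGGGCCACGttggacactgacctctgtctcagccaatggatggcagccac
Derl3: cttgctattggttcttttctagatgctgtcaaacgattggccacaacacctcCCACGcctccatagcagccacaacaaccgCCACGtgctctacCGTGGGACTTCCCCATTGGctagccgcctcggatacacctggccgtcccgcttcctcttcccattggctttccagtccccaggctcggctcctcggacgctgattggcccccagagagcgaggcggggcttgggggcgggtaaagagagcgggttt
Syvn1: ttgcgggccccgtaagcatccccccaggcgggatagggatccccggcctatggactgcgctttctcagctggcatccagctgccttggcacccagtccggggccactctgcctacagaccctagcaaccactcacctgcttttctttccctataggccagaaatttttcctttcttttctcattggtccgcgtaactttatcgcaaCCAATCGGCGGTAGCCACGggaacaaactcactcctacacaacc
Selenos: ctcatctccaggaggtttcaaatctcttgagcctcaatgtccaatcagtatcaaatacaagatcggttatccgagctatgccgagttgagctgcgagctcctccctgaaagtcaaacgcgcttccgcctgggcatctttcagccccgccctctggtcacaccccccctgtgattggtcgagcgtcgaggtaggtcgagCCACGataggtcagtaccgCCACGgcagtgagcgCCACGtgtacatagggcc
The Herpud1 promoter held an ERSE-II at bases -52 to -42 from the gene's start and a composite element on the other strand at -112 to -105. Derl3 held an ERSE on the other strand at -156 to -138, and Syvn1 held an ERSE at -44 to -26. The CCACG of each such element also counted as a match to CCACG alone. Selenos had no complete element but 3 copies of CCACG within the last 52 bases, starting at -52, -33 and -18. Of all 32851 promoter windows, each with 250 bases before and 50 after the start, 0.119% held an ERSE, 0.0365% an ERSE-II, 3.97% a composite element and 32.8% a CCACG. In the 14537 windows of tested genes these shares were 0.124%, 0.0619%, 2.56% and 44.6%. How many windows held at least 3 copies of CCACG was not counted. Windows were found for 9 members, not for Derl1, and Derl2 had windows at 2 start sites. CCACG was also present in the windows of Sel1l, Edem1, Edem2, Edem3 and 1 start of Derl2, and TGACG directly followed by TGG (UPRE), held by 0.676% of all windows, in none of the 9. A match is a stretch of letters and not a measured binding site.

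**Figure D1:**
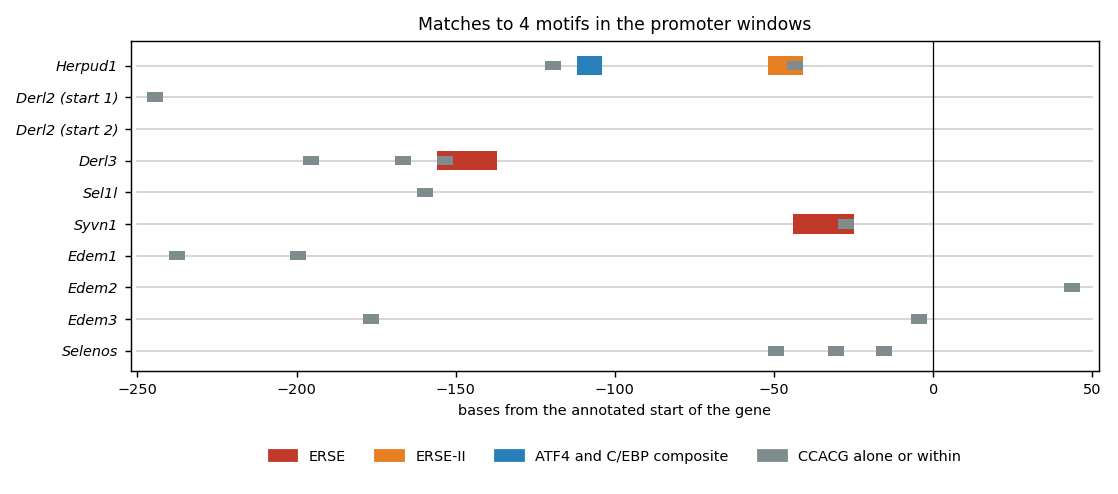
Positions of motif matches in the promoter windows of 9 genes, from 250 bases before to 50 bases after the annotated start (x axis, bases from the start); each grey line is 1 window and bars are matches on either strand. ERSE appears in Derl3 and Syvn1, ERSE-II and the composite element in Herpud1, and CCACG alone in the other genes.

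The arrays were scanned in 3 runs. Run 1 held wild-type replicates 1 and 2 with the Atf4-null arrays, run 2 wild-type replicates 3 and 4 with the Perk-null arrays, and run 3 only eIF2a A/A and Fv2E-PERK arrays; file names mark the wild-type cells of run 1 and of run 2 as the partners of the Atf4 and the Perk line. All treated arrays of run 1 were on 1 slide and all untreated ones on another, so slide and treatment cannot be told apart there. The 75th percentile of signal ranged from 111 to 418 intensity units, the lowest being that of treated Atf4-null replicate 1, while the share of probes well above background was 45.1% to 58.2%. In the targeted-gene check, Atf4 read 1.37 ± 2.01 in untreated Atf4-null cells against 7.41 ± 0.24 in untreated wild-type cells (mean ± SD of log2 level, n = 2 and 4). Eif2ak3, which encodes PERK, read -0.24 ± 0.33 in untreated Perk-null cells against 0.67 ± 0.49 in untreated wild-type cells (n = 2 and 4), and remained well above background; whether its probe lies in the deleted part is not given in the sources used here. Eif2s1, which encodes eIF2α and carries only a point mutation in eIF2a A/A cells, is not checked by its level. Of 14 fibroblast markers, 11 to 14 were well above background on every array. The Perk-null arrays stood apart in the sum of 6 epithelial markers: 4 to 6 were well above background, with a summed log2 level of 5.47 to 5.87, against 0 to 4 and -2.54 to 0.47 on the other 20 arrays. That sum was mostly Krt18, which read 5.43 to 5.82 in Perk-null cells. Cdh1 was well above background on all 4 Perk-null arrays and on none of the others. Not all 6 set the line apart: Krt8 read -4.03 to -2.68 in Perk-null and -3.99 to -2.43 in Fv2E-PERK cells. Krt5 was well above background on 2 of 4 Perk-null and 6 of 8 wild-type arrays, and Krt14 on all Perk-null and all wild-type arrays. In bulk RNA, fewer cells of a type and less RNA per cell cannot be told apart.

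Levels are given as log2 signal relative to the 75th percentile of the same array, so a value of 0 is that percentile, and changes are log2 differences ± SE from a limma fit of all 24 arrays with Benjamini-Hochberg adjustment over the 14466 genes; a gene is called at an adjusted p under 0.05. Levels of different genes come from different probes and are not set against each other. The plot of levels by array gives every value. Only Derl3 was ever not well above background: it was well above on 15 of 24 arrays, while the other 9 genes were on all 24.

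**Figure D2:**
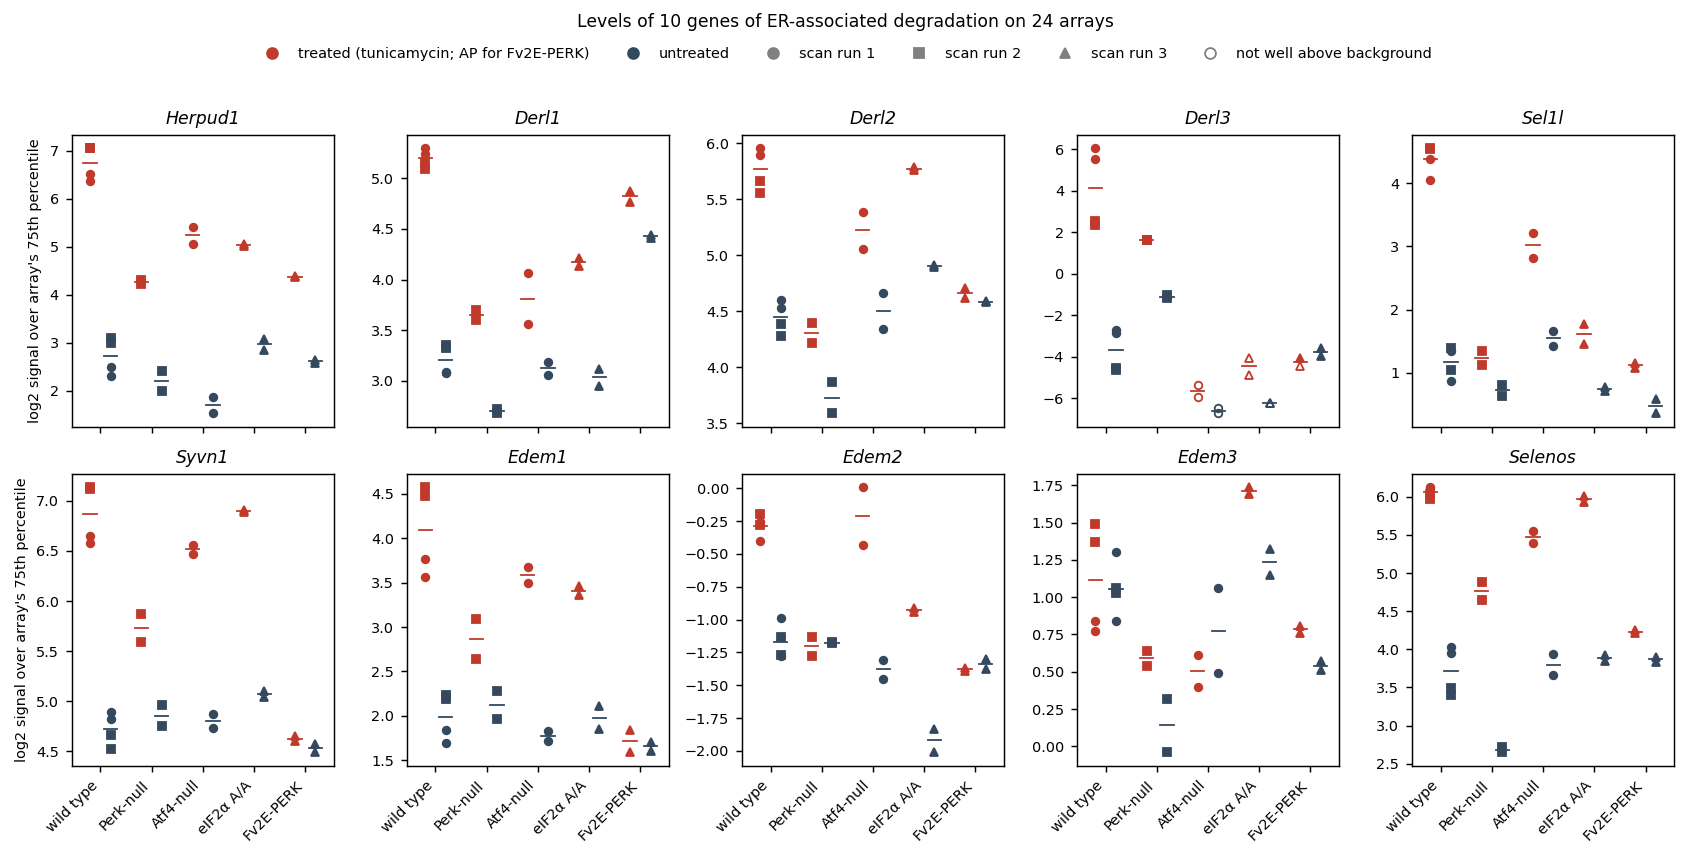
Log2 level relative to the 75th percentile of each array (y axis) of the 10 genes on the 24 arrays, by genotype (x axis), with treated arrays in red to the left of untreated arrays in dark blue; symbols give the scan run, lines the group means, and open symbols arrays on which the probe was not well above background. Treated wild-type arrays lie above untreated ones in 9 genes and overlap them in Edem3, and Derl3 is open on all Atf4-null and eIF2a A/A arrays.

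In wild-type cells tunicamycin raised 9 of the 10 genes, against 21.2% of all tested genes called higher. The rises ran from 1.85-fold for Edem2 to 224-fold for Derl3, whose untreated signals were dim. The median change of the 10 was 2.13 (log2), against 0.07 over all genes tested. Edem3 was the exception, at 0.06 ± 0.15 (adjusted p = 0.792).

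Herpud1, whose membrane protein binds HRD1 and is itself short-lived, read 6.37, 6.51, 7.05 and 7.06 in treated and 2.50, 2.31, 3.0 and 3.09 in untreated wild-type cells. The groups lay far apart, and both were higher in run 2 than in run 1. The change was 4.03 ± 0.11, or 16.3-fold (adjusted p = 3.75e-12), and was 4.04 in run 1 and 4.01 in run 2. Sel1l, the adaptor that holds HRD1 in its complex, read 4.05, 4.38, 4.56 and 4.54 in treated and 0.87, 1.34, 1.05 and 1.40 in untreated cells. Its groups did not overlap, and the change was 3.22 ± 0.14, or 9.31-fold (adjusted p = 2.23e-10).

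Syvn1, the ubiquitin ligase itself, read 6.65, 6.58, 7.12 and 7.14 in treated and 4.82, 4.89, 4.52 and 4.66 in untreated wild-type cells. Treated levels were higher and untreated levels lower in run 2, so that the change was 1.76 in run 1 and 2.54 in run 2, and 2.15 ± 0.13 in all (adjusted p = 7.47e-09). Selenos, which links p97 to the Derlins, read 6.13, 6.11, 5.97 and 6.03 in treated and 4.03, 3.95, 3.40 and 3.49 in untreated cells. The treated arrays were nearly level, the groups did not overlap, and the change was 2.34 ± 0.10 (adjusted p = 1.87e-10).

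Of the Derlins, membrane proteins related to rhomboid proteases that thin the ER membrane for export, Derl3 moved most. It read 5.53, 6.07, 2.53 and 2.34 in treated and -2.85, -2.71, -4.55 and -4.63 in untreated wild-type cells. Both groups were lower in run 2, by more than the distance between arrays of a run, and they did not overlap. The change was 7.81 ± 0.27 (adjusted p = 1.51e-11), 383-fold in run 1 and 131-fold in run 2. These folds rest on dim untreated signals of 45.2, 45.1, 15.3 and 14.5 intensity units, so their size is uncertain. All 4 were well above background on their arrays, but a Derl3 signal of 19.3 on an Fv2E-PERK array with AP was not. Derl1 read 5.30, 5.24, 5.09 and 5.15 in treated and 3.08, 3.09, 3.35 and 3.32 in untreated cells, a change of 1.98 ± 0.11. For Derl2 the treated values were 5.90, 5.96, 5.56 and 5.66 and the untreated ones 4.60, 4.53, 4.28 and 4.39, a change of 1.33 ± 0.10. In both genes every treated array was above every untreated one (adjusted p = 2.64e-09 and 8.9e-08).

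Among the EDEM genes, Edem1 read 3.56, 3.77, 4.58 and 4.48 in treated and 1.69, 1.84, 2.19 and 2.24 in untreated wild-type cells. The change was 2.11 ± 0.13 (adjusted p = 7.47e-09), with no overlap. Edem2, a mannosidase that takes the initial trimming step, read -0.26, -0.40, -0.20 and -0.28 in treated and -0.99, -1.28, -1.13 and -1.27 in untreated cells. Its groups also stayed apart, and the change was 0.89 ± 0.10 (adjusted p = 8.58e-06). Edem3, which trims further, read 0.84, 0.77, 1.37 and 1.49 in treated and 0.84, 1.30, 1.06 and 1.03 in untreated cells. These groups overlapped, and the difference was -0.26 in run 1 and 0.38 in run 2.

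**Figure D3:**
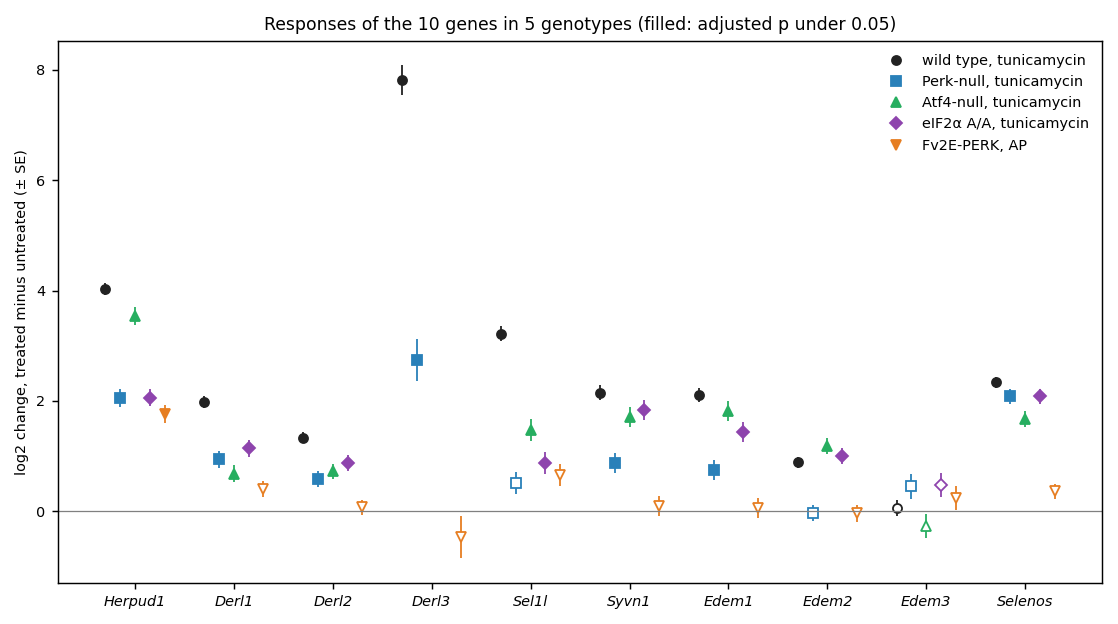
Log2 change with treatment ± SE (y axis) of the 10 genes (x axis) with tunicamycin in wild-type cells and the 3 mutants and in Fv2E-PERK cells with AP; filled symbols have an adjusted p under 0.05. Derl3 in wild-type cells is the highest point at 7.81, and with AP only Herpud1, at 1.76, is filled; Derl3 in Atf4-null and in eIF2a A/A cells, not well above background, is not drawn.

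In Perk-null cells the same treatment raised 7 of the 10 genes, against 1.87% of all tested genes called higher, and the median change was 0.81 against 0.02 over all genes tested. Herpud1, Selenos and Derl3 had the clearest rises, Sel1l and Edem2 were not called, and 8 of the 10 responses were smaller than in wild-type cells (6.63% of all genes tested had a lower change in Perk-null cells). Selenos and Edem3 were the 2 whose difference was not called. The epithelial markers Krt18 and Cdh1 were well above background on the Perk-null arrays, and the part of such markers in these results was not tested.

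Sel1l read 1.12 and 1.34 in treated and 0.81 and 0.64 in untreated Perk-null cells. The treated arrays were a little higher, without overlap, but the change of 0.51 ± 0.20 was not called (adjusted p = 0.25), except with scan session as a random block (adjusted p = 0.0424). The change was 15.2% of the log2 change in the wild-type arrays of the same run, and its difference from the wild-type change over all arrays was -2.71 ± 0.24 (adjusted p = 5.21e-06). Syvn1 read 5.59 and 5.87 in treated and 4.96 and 4.75 in untreated cells, a change of 0.88 ± 0.18 (adjusted p = 0.0181). That was 34.6% of the log2 change in wild-type cells of run 2, and the difference from the wild-type response was -1.27 ± 0.22 (adjusted p = 0.00186).

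Herpud1 read 4.30 and 4.22 in treated and 2.00 and 2.42 in untreated Perk-null cells, a change of 2.05 ± 0.16 (adjusted p = 4.36e-06). The groups were clearly separate, but the treated arrays stayed below all 4 treated wild-type arrays, and the difference between the responses was -1.98 ± 0.20 (adjusted p = 1.81e-05). Selenos read 4.64 and 4.88 in treated and 2.72 and 2.65 in untreated cells. Both groups were below their wild-type counterparts, while the change of 2.08 ± 0.14 (adjusted p = 9.57e-07) differed from the wild-type change by -0.26 ± 0.17 (adjusted p = 0.352).

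Derl3 read 1.62 and 1.65 in treated and -1.04 and -1.17 in untreated Perk-null cells. The untreated arrays were above every untreated wild-type array and the treated ones below every treated wild-type array. The change was 2.74 ± 0.38 (adjusted p = 0.000852), and its difference from the wild-type change was -5.06 ± 0.47 (adjusted p = 7.23e-06). Derl1 changed by 0.94 ± 0.15 (adjusted p = 0.00287) and Derl2 by 0.58 ± 0.14 (adjusted p = 0.0388), with differences from the wild-type changes of -1.04 ± 0.19 and -0.74 ± 0.17 (adjusted p = 0.0022 and 0.01). The probes of Derl2 not used changed by 0.13 and 0.60 in Perk-null cells, against 1.14 and 1.31 in wild-type cells. The probe of Derl1 not used changed by 0.67, against 1.51 in wild-type cells.

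Edem1 read 2.64 and 3.09 in treated and 1.96 and 2.28 in untreated Perk-null cells, a change of 0.74 ± 0.18 (adjusted p = 0.04). Edem2 read -1.13 and -1.28 in treated and -1.17 and -1.18 in untreated cells. Its groups overlapped, its change was -0.03 ± 0.15, and the changes of Edem1 and Edem2 differed from those in wild-type cells by -1.36 ± 0.22 and -0.92 ± 0.18 (adjusted p = 0.00104 and 0.00358). Edem3 changed by 0.45 ± 0.22 (adjusted p = 0.417).

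Set against the wild-type arrays of run 2 alone, the same 8 differences were called, from -0.70 for Derl2 to -4.29 for Derl3, and Selenos stood at -0.47 ± 0.16 (adjusted p = 0.085). Each of 2 slides held 1 treated and 1 untreated Perk-null array, and within these slides the changes were 2.21 and 1.88 for Herpud1, 2.17 and 2.00 for Selenos, and 1.13 and 0.36 for Edem1. The Perk-null call of Derl2 was lost when any 1 of the 4 Perk-null arrays was left out, and those of Syvn1 and Edem1 without any but treated replicate 1. Without treated Perk-null replicate 2 only 3 members stayed called, as Derl1, at 0.89 ± 0.19, also missed the threshold (adjusted p = 0.0509). The called difference of Derl2 from the wild-type response was -0.60 ± 0.19 without untreated Perk-null replicate 1 (adjusted p = 0.0761) and -0.65 ± 0.20 without treated replicate 1 (adjusted p = 0.0609).

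In Atf4-null cells tunicamycin raised 8 of the 10 genes, against 12.0% of all tested genes called higher, with a median change of 1.32 against -0.04 over all genes tested. The rises of Herpud1, Syvn1, Edem1 and Edem2 were not called different from those in wild-type cells, those of Derl1, Derl2, Sel1l and Selenos were smaller, and Derl3 was not well above background on any Atf4-null array. In all, 5 of the 10 responses were called smaller than in wild-type cells, against 19.5% of all genes tested. Derl3 is among the 5 although its own response was not measured above background. The median difference over all genes tested was itself -0.13, and 0.00 under quantile normalization.

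Derl3 read -5.35 and -5.94 in treated Atf4-null cells, against 5.53 and 6.07 on the treated wild-type arrays of the same scans. Since the Atf4-null values are not well above background, each was replaced by the lowest signal of any probe well above background on that array where that was higher. On that footing the level in treated wild-type cells of run 1 was at least 869-fold higher than in treated Atf4-null cells. No fold is given for the response of Derl3 in Atf4-null cells, where both groups were below that limit.

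Sel1l read 2.82 and 3.21 in treated and 1.43 and 1.66 in untreated Atf4-null cells. The treated arrays were below those of treated wild-type cells, and the change of 1.47 ± 0.20 (adjusted p = 8.67e-05) differed from the wild-type change by -1.75 ± 0.24 (adjusted p = 0.000142). Derl1 read 3.56 and 4.06 in treated and 3.06 and 3.19 in untreated cells, a change of 0.68 ± 0.15 (adjusted p = 0.004). Against the wild-type response the difference was -1.30 ± 0.19 (adjusted p = 0.0002), and -1.50 ± 0.21 against the wild-type arrays of run 1 alone (adjusted p = 0.000396). The probe of Derl1 not used changed by 1.03 in Atf4-null and 1.51 in wild-type cells, a smaller gap in the same direction.

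Syvn1 read 6.56 and 6.47 in treated and 4.73 and 4.87 in untreated Atf4-null cells, against 6.65 and 6.58 in treated and 4.82 and 4.89 in untreated wild-type cells of run 1. Within each scan the 2 genotypes differed by at most 0.11 in size. The change of 1.71 ± 0.18 was 97.1% of the wild-type change of that run, and the difference was -0.05 ± 0.18 (adjusted p = 0.862). Over all wild-type arrays it was -0.44 ± 0.22 (adjusted p = 0.15), and against those of run 2 alone it was called, at -0.82 (adjusted p = 0.00355), while quantile normalization turned its sign, at 0.30 (adjusted p = 0.333). Edem1 read 3.68 and 3.50 in treated and 1.72 and 1.83 in untreated cells, a change of 1.81 ± 0.18, which was 95.6% of the wild-type change of run 1. Its difference from that response was -0.08 ± 0.25 (adjusted p = 0.837).

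Herpud1 read 5.06 and 5.42 in treated and 1.87 and 1.53 in untreated Atf4-null cells. On arrays scanned together it was lower in Atf4-null than in wild-type cells every time, by -1.31 and -1.09 (treated) and -0.63 and -0.78 (untreated). The change of 3.54 ± 0.16 (adjusted p = 1.97e-09) differed from the wild-type change by -0.48 ± 0.20, which was not called (adjusted p = 0.0736). It was called at -0.49 ± 0.15 with scan session, which the wild-type and Atf4-null arrays of run 1 share in pairs, as a random block (adjusted p = 0.0146), and at -0.74 with normexp background correction (adjusted p = 0.0269). It was also called at -0.66 without untreated Atf4-null replicate 2 (adjusted p = 0.0421) and at -0.67 without treated replicate 2 (adjusted p = 0.0323), while under quantile normalization its sign turned, at 0.14 (adjusted p = 0.663).

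Edem2 read 0.01 and -0.43 in treated and -1.31 and -1.45 in untreated Atf4-null cells, a change of 1.18 ± 0.15 (adjusted p = 4.68e-05). Its treated arrays overlapped those of treated wild-type cells, and the difference between the responses was 0.29 ± 0.18 (adjusted p = 0.234), or 0.51 ± 0.18 without treated Atf4-null replicate 2 (adjusted p = 0.0448). Selenos read 5.39 and 5.55 in treated and 3.94 and 3.66 in untreated cells, a change of 1.67 ± 0.14. The difference of -0.68 ± 0.17 from the wild-type response (adjusted p = 0.00846) was -0.47 against run 1 alone (adjusted p = 0.0751) and -0.03 under quantile normalization (adjusted p = 0.921).

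Derl2 rose by 0.72 ± 0.14 in Atf4-null cells (adjusted p = 0.00143), a difference of -0.61 ± 0.17 from the wild-type change (adjusted p = 0.015). That difference was -0.01 under quantile normalization (adjusted p = 0.981), -0.45 without untreated Atf4-null replicate 2 (adjusted p = 0.0946) and -0.44 without treated replicate 1 (adjusted p = 0.093), and 1 of its 2 probes not used rose more in Atf4-null cells, by 1.57, than in wild-type cells, by 1.14. The rise of Derl1 was 0.43 without treated Atf4-null replicate 2 (adjusted p = 0.058). Edem3 stood at -0.27 ± 0.22 (adjusted p = 0.377).

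In eIF2a A/A cells 9 of the 10 genes were called higher with tunicamycin, against 3.08% of all tested genes called higher, with a median change of 1.29 against 0.01. The 9 include Derl3, for which no fold is given because it was not well above background on any of the 4 arrays; its call was lost with normexp background correction (adjusted p = 0.947) and without a run term (adjusted p = 0.565), which leaves 8 measured rises. Selenos, Syvn1 and Edem2 changed by amounts whose difference from wild-type cells was not called, while Herpud1, Sel1l and Derl1 rose by less. In all, 5 of the 10 responses were called smaller than in wild-type cells, against 10.1% of all genes tested. Derl3 is among the 5 although its own response was not measured above background. All eIF2a A/A arrays were of run 3, which held no wild-type array, so scan run and genotype cannot be told apart in their levels. Their responses, too, are set against wild-type cells of other runs, marked as partners of the Atf4 and the Perk line. In these differences genotype, line and scan run cannot be told apart. For Syvn1 the difference was 0.06 against the wild-type arrays of run 1 and -0.71 against those of run 2.

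Herpud1 read 5.01 and 5.05 in treated and 2.85 and 3.08 in untreated eIF2a A/A cells. The untreated arrays lay within the range of untreated wild-type arrays and the treated ones below all treated wild-type arrays. The change of 2.06 ± 0.16 (adjusted p = 2.78e-06) was close to that of Perk-null cells and differed from that of wild-type cells by -1.96 ± 0.20 (adjusted p = 1.83e-05). Sel1l read 1.45 and 1.77 in treated and 0.71 and 0.77 in untreated cells, a change of 0.87 ± 0.20 (adjusted p = 0.018), which differed from the wild-type change by -2.35 ± 0.24 (adjusted p = 2.09e-05). The rise of Sel1l lost its call without any 1 eIF2a A/A array except treated replicate 1, at 0.71 to 0.90 (adjusted p = 0.103 to 0.217), and the call of Derl3 was lost in the same 3 fits.

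Syvn1 read 6.89 and 6.91 in treated and 5.04 and 5.10 in untreated eIF2a A/A cells. The treated arrays lay within the range of treated wild-type arrays, and the change of 1.83 ± 0.18 (adjusted p = 2.79e-05) was 85% of the wild-type change. The difference of -0.32 ± 0.22 was not called (adjusted p = 0.342), but against the wild-type arrays of run 2 alone it was, at -0.71 (adjusted p = 0.00998). Selenos read 6.01 and 5.93 in treated and 3.85 and 3.92 in untreated cells, a change of 2.08 ± 0.14 (adjusted p = 6.21e-07). Its difference from the wild-type response was -0.26 ± 0.17 (adjusted p = 0.315).

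Derl1 changed by 1.14 ± 0.15 in eIF2a A/A cells, a difference of -0.84 ± 0.19 from the wild-type change (adjusted p = 0.00578). Derl2 changed by 0.87 ± 0.14, a difference of -0.45 ± 0.17 that was not called (adjusted p = 0.0783). The Derl2 difference was called at -0.43 with scan session as a random block (adjusted p = 0.03). It was also called at -0.59 ± 0.13 with the mean of all probes of a gene (adjusted p = 0.00577), and in a fit of the compared arrays alone (adjusted p = 0.0482). Edem1 read 3.36 and 3.46 in treated and 1.85 and 2.11 in untreated cells. Its change of 1.43 ± 0.18 differed from the wild-type change by -0.67 ± 0.22 (adjusted p = 0.044), a call that was lost in 10 of the 12 fits that left out 1 array of either genotype. Edem2 read -0.91 and -0.94 in treated and -2.01 and -1.83 in untreated cells. Its rise of 1.00 ± 0.15 (adjusted p = 0.0011) was not called different from the wild-type rise, at 0.11 ± 0.18 (adjusted p = 0.708). Edem3 stood at 0.48 ± 0.22 (adjusted p = 0.256). The Edem3 change was called with scan session as a random block (adjusted p = 0.0481) and in a fit of the compared arrays alone (adjusted p = 0.0397).

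**Figure D4:**
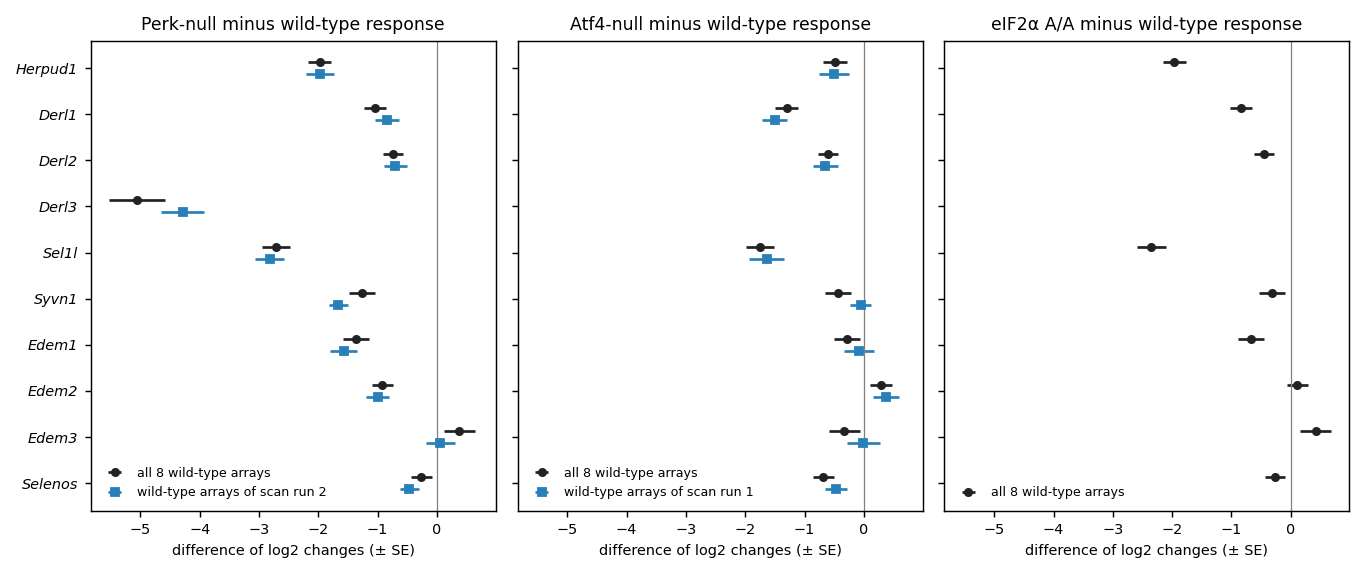
Difference of each mutant's log2 change from the wild-type log2 change ± SE (x axis) for the 10 genes (rows), in Perk-null, Atf4-null and eIF2a A/A cells; circles use all 8 wild-type arrays and squares the wild-type arrays scanned in the same run. Sel1l lies left of 0 in all 3 panels, Syvn1 and Edem1 lie far left in Perk-null cells and near 0 in Atf4-null cells, and Derl3 in Atf4-null and eIF2a A/A cells, not well above background, is not drawn.

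AP given to Fv2E-PERK cells raised Herpud1 and no other member, so 1 of the 10 was called, against 2.79% of all tested genes called higher. Herpud1 read 4.39 and 4.36 with AP and 2.65 and 2.58 without it. The groups were tight and far apart, and the change was 1.76 ± 0.16, or 3.38-fold (adjusted p = 1.37e-05), which is 43.7% of the wild-type log2 change with tunicamycin. Sel1l read 1.08 and 1.16 with AP and 0.59 and 0.36 without it, a change of 0.65 ± 0.20 that was not called (adjusted p = 0.0841). The Sel1l change was called with scan session as a random block (adjusted p = 0.00824), and in the fit of the Fv2E-PERK arrays alone given below.

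Derl1 and Selenos stood at 0.40 ± 0.15 and 0.36 ± 0.14 with AP (adjusted p = 0.184 and 0.183). Syvn1, Edem1, Edem2 and Derl2 lay between -0.04 and 0.10, and Edem3 at 0.24 ± 0.22. Derl3 read -4.06 and -4.44 with AP, where 1 of 2 arrays was well above background, and -3.96 and -3.60 without it. Both AP arrays were above both untreated arrays in 7 of the 10 genes, against 45.4% of all genes tested. A fit of the 4 Fv2E-PERK arrays alone called 4 members, adding Sel1l, Derl1 and Selenos at adjusted p = 0.0258, 0.0294 and 0.0285, but also called 28.7% of all genes tested.

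Before treatment the Perk-null cells differed from wild-type cells in 7 of the 10 genes, with 1 higher (16.3% of all genes tested were called higher) and 6 lower (24.8% called lower). Derl3 was the 1 that was higher, by 3.87 ± 0.36, or 14.6-fold (adjusted p = 7.59e-07), and by 3.48 ± 0.26 against the wild-type arrays of run 2 alone. Edem3 and Selenos were lower by -1.06 ± 0.20 and -0.87 ± 0.13 (adjusted p = 0.000622 and 8.38e-05). The epithelial marker levels given above move with this comparison too, and their part in it was not tested.

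Edem3 read -0.04 and 0.32 in untreated Perk-null cells, against 0.84, 1.30, 1.06 and 1.03 in untreated wild-type cells, with no overlap. Herpud1 was lower by -0.83 ± 0.15 (adjusted p = 0.000417), although its arrays overlapped those of wild-type cells until set against run 2. Derl2 was at -0.58 ± 0.13, Sel1l at -0.55 ± 0.18 and Derl1 at -0.53 ± 0.14 (adjusted p = 0.00213, 0.0236 and 0.00731). By plain group means, the probe of Derl1 not used stood at -0.19 and those of Derl2 not used at -0.14 and -0.78, so these falls depended on the probe. Sel1l lost its call without untreated Perk-null replicate 2, at -0.47 (adjusted p = 0.154), or without untreated wild-type replicate 4, at -0.48 (adjusted p = 0.0877). Derl1 lost its call without untreated Perk-null replicate 2, at -0.51 (adjusted p = 0.0502), and under quantile normalization, at -0.34 (adjusted p = 0.0556). For Syvn1, Edem1 and Edem2 the differences were 0.07, -0.20 and -0.01 and were not called.

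Untreated Atf4-null cells had 2 of the 10 genes lower than untreated wild-type cells, against 10.7% of all genes tested called lower, and none higher. Herpud1 read 1.87 and 1.53 in Atf4-null cells, below the 2.50, 2.31, 3.0 and 3.09 of wild-type cells, a difference of -0.71 ± 0.15 (adjusted p = 0.00299). Derl3 read -6.73 and -6.50 in Atf4-null cells and was not well above background there, so the wild-type level was at least 2.15-fold higher, and at least 4.02-fold higher in the wild-type arrays of run 1. Its call (limma, adjusted p = 8.73e-07) belongs to the measured values, which were not well above background in Atf4-null cells, and does not test these bounds. Sel1l stood 0.50 ± 0.18 higher without a call (adjusted p = 0.0653), and was called at 0.67 without untreated wild-type replicate 2 (adjusted p = 0.0165), at 0.48 with scan session as a random block (adjusted p = 0.0141) and with a replicate block (adjusted p = 0.048).

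Across the 10 groups the order of mean levels depended on the gene. Treated wild-type cells had the highest mean level of Herpud1, Derl1, Derl3, Sel1l, Edem1 and Selenos. Treated eIF2a A/A cells had that of Derl2, Syvn1 and Edem3, and treated Atf4-null cells that of Edem2, but the Derl2, Syvn1 and Edem2 arrays of these groups overlapped those of treated wild-type cells. The lowest mean was in untreated Perk-null cells for Derl1, Derl2, Edem3 and Selenos, in untreated Atf4-null cells for Herpud1 and Derl3, in untreated Fv2E-PERK cells for Sel1l, Syvn1 and Edem1, and in untreated eIF2a A/A cells for Edem2. For Derl1, untreated Fv2E-PERK cells, at 4.41 and 4.44, were above the untreated arrays of every other genotype, by more than 1 log2 unit. Fv2E-PERK arrays were all of run 3, so that difference and the scan run cannot be told apart. Of 4 hepatocyte markers, only 2 were well above background on the Fv2E-PERK arrays, against 0 to 3 on Perk-null, 1 on eIF2a A/A, 0 to 1 on wild-type and 0 on Atf4-null arrays. Their summed log2 level was 2.25 to 2.58 on the Fv2E-PERK arrays, against -1.29 to -0.76 on eIF2a A/A, -4.80 to 0.76 on Perk-null, -4.31 to -3.31 on Atf4-null and -4.15 to -1.92 on wild-type arrays. The part of these markers in the Derl1 difference was not tested.

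Paralogs were compared by the log2 difference between 2 genes on the same array, treated against untreated wild-type arrays, with an exact permutation test over samples (two-sided, 6 pairs, 4 against 4 arrays, for which 0.0286 is the smallest p). In all 6 pairs the treated and untreated arrays did not overlap, so each reached an exact p = 0.0286, also after Benjamini-Hochberg adjustment over the 6. The permutation exchanged arrays freely between run 1 and run 2 and so took no account of scan run. A permutation within runs was not done. Every pair had a difference of the same sign in both runs, with Derl3 minus Derl1 at 6.40 in run 1 and 5.24 in run 2. With 1 wild-type array left out the adjusted p was 0.0571 in 6 of 8 fits for Edem2 minus Edem3, in 4 for Derl1 minus Derl2 (each treated array) and in 3 for Edem1 minus Edem2 (untreated replicates 1, 2 and 3). Derl3 rose more than Derl1 by 5.82 ± 1.11 and more than Derl2 by 6.48 ± 1.00 (log2, ± SE, n = 4 per group; exact p = 0.0286 for both). Derl1 rose more than Derl2 by 0.66 ± 0.15, which was 0.81 in run 1 and 0.50 in run 2.

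In the EDEM family Edem1 rose more than Edem2 by 1.22 ± 0.29 and differed from Edem3 by 2.05 ± 0.18, and Edem2 differed from Edem3 by 0.83 ± 0.22 (n = 4 per group, exact permutation p = 0.0286 each). The other genotypes have 2 arrays against 2, where no p under 0.333 can be had, so their values are given without a test. Edem1 minus Edem3 was 2.08 in Atf4-null, 0.95 in eIF2a A/A and 0.30 in Perk-null cells, against 2.05 in wild-type cells. Edem2 minus Edem3 was -0.48 in Perk-null cells, 1.44 in Atf4-null and 0.51 in eIF2a A/A cells, so the sign in Perk-null cells was opposite to that in wild-type cells.

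Derl1 minus Derl2 was 0.36 in Perk-null, -0.04 in Atf4-null, 0.27 in eIF2a A/A and 0.32 in AP-treated Fv2E-PERK cells, against 0.66 in wild-type cells. Derl3 minus Derl1 was 1.80 in Perk-null cells against 5.82 in wild-type cells. With AP the EDEM differences stayed within -0.29 and 0.10. The 2 other probes of Derl2 changed by 1.31 and 1.14 in wild-type cells and the other probe of Derl1 by 1.51, so the gap between Derl1 and Derl2 is smaller with those probes.

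**Figure D5:**
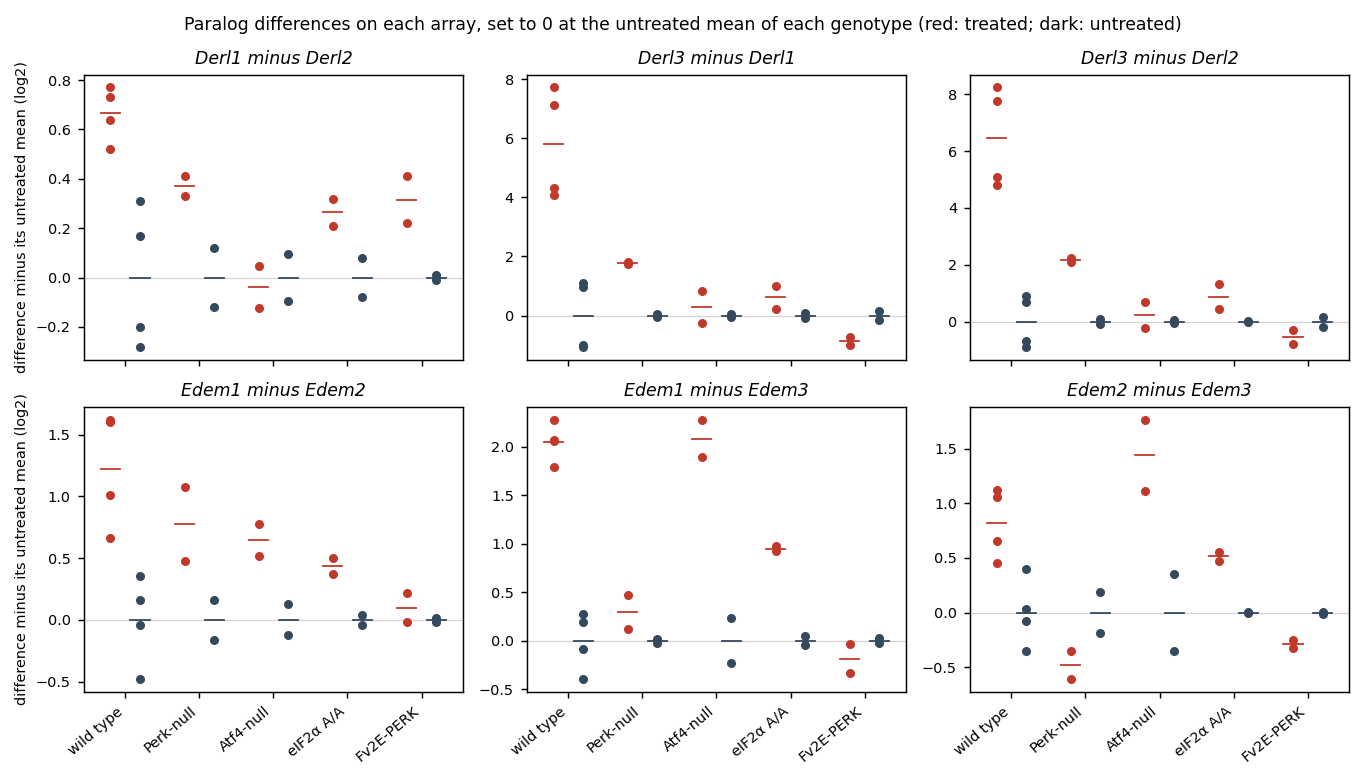
Log2 difference between 2 paralogs on each array, minus its mean over the untreated arrays of the same genotype (y axis), by genotype (x axis), with treated arrays in red to the left of untreated arrays in dark blue and lines for group means. In wild-type cells treated and untreated arrays do not overlap in any of the 6 pairs; the Derl3 panels include Atf4-null and eIF2a A/A values not well above background.

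Outside the 10, 61 other genes of the pathway were listed and 60 were tested. Wild-type cells had 27 of them higher and 5 lower with tunicamycin, where 21.2% of all genes tested were called higher and 16.3% lower. The list had a median change of 0.33, far below the 2.13 of the 10 members and against 0.07 over all genes. The 3 largest rises were in Erlin1, part of the erlin complex that marks IP3 receptors for degradation (1.95 ± 0.14), the rhomboid protease Rhbdd1 (1.77 ± 0.29) and Selenok, a selenoprotein partner of Selenos (1.64 ± 0.11). The largest falls were in Ngly1, which strips sugar chains from exported proteins (-1.02 ± 0.14), and Fbxo2, a ubiquitin ligase subunit that binds such chains (-0.96 ± 0.17).

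In Perk-null cells 5 of the 60 were higher and 0 lower, against 1.87% and 0.408% of all genes tested. In Atf4-null cells 11 were higher and 9 lower, against 12.0% and 17.0%, so neither count was far from the share over all genes. In eIF2a A/A cells 8 were higher and 0 lower, against 3.08% and 1.82%. With AP, Rhbdd1 (1.72 ± 0.42, adjusted p = 0.0309) and Erlin1 (0.75 ± 0.19, adjusted p = 0.0393) rose and Fbxo2 fell by 0.93 (adjusted p = 0.0386), where 2.79% of all genes tested were called higher and 1.27% lower. Erlin1 had no called response in any of the 3 mutants with tunicamycin, at 0.26 in Perk-null, -0.14 in Atf4-null and -0.19 in eIF2a A/A cells. Its differences from the wild-type response were -1.69, -2.09 and -2.14 (adjusted p = 0.000332, 3.74e-05 and 3.91e-05). The difference of Rhbdd1 was -1.08 in Perk-null, -1.30 in Atf4-null and -1.94 in eIF2a A/A cells (adjusted p = 0.184, 0.0649 and 0.0155).

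Higher responses than in wild-type cells were called for Ubxn4, an ER membrane anchor of p97. The differences were 1.58 ± 0.45 in Perk-null, 2.36 ± 0.45 in Atf4-null and 0.70 ± 0.45 in eIF2a A/A cells (adjusted p = 0.0309, 0.00149 and 0.305). They are set against a fall of Ubxn4 in wild-type cells, at -0.88 ± 0.26 (adjusted p = 0.0149). Its own change was not called in Perk-null cells, at 0.70 ± 0.37 (adjusted p = 0.474), and was a rise of 1.48 ± 0.37 in Atf4-null cells (adjusted p = 0.00747). Fbxo2 differed by 1.39 ± 0.29 in Perk-null, 1.11 ± 0.29 in Atf4-null and 1.94 ± 0.29 in eIF2a A/A cells (adjusted p = 0.00546, 0.00981 and 0.000358). Ubl4a, a chaperone cofactor for membrane proteins, differed by -0.70 ± 0.20 in Perk-null, -1.54 ± 0.20 in Atf4-null and -0.76 ± 0.20 in eIF2a A/A cells (adjusted p = 0.0301, 9.72e-05 and 0.0159).

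As a description over the 24 arrays, which share scan runs and genotypes, the profile nearest to the mean of the 10 members was that of Manf (Pearson r = 0.97), a secreted ER stress protein, followed by Dnajc3 (0.96), Srprb, Sdf2l1 and Sec11c (0.95 each). Syvn1 and Edem1 were each other's nearest member (0.96). Sel1l was nearest to Ddit3, which encodes the stress factor CHOP (0.96), Syvn1 to the ER co-chaperone Dnajb9 (0.97), Selenos to the ER chaperone gene Hspa5 (0.95), Edem2 to the ER disulfide isomerase Pdia4 (0.91) and Herpud1 to Manf (0.92). Derl2 was nearest to Gpat4 (0.97), Edem1 to Selenok (0.95), Derl3 to Sh3tc2 (0.91), Edem3 to Sgpp1 (0.92) and Derl1 to Kat8 (0.89). Derl3 and Edem3 had no member nearer than 0.61 (Sel1l) and 0.60 (Derl2).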

How the data were processed

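RNA of 24 samples in 10 groups was measured on one-colour Agilent arrays of 55681 probes. The authors deposited scanner output from Agilent Feature Extraction (version 10.7.1.1, per the file headers), whose processed signal is a background-subtracted intensity. The authors also deposited a table of log2 values, used as an alternative. Its differences between arrays equalled those of the scanner log2 values scaled to the 75th percentile within 0.001 for 99.3% of values, and it is centred per probe on a baseline that stays unknown. The column medians of the table, in replicate order, were -0.02, 0.07, -0.12 and -0.24 in treated and -0.13, 0.12, -0.21 and -0.22 in untreated wild-type cells. They were 0.39 and -0.32 in treated and -0.19 and 0.31 in untreated Perk-null cells, 0.49 and -0.06 in treated and -0.19 and -0.25 in untreated Atf4-null cells, 0.04 and -0.02 in treated and -0.01 and 0.03 in untreated eIF2a A/A cells, and -0.19 and -0.08 with AP and -0.23 and -0.18 without it in Fv2E-PERK cells.

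From each array, log2 of the processed signal minus its 75th percentile was taken, and control spots were left out. A gene symbol was given to 26625 probes and none to 29056. Testing needed at least 1 group in which all arrays had the gene's probe well above background, which left 14466 genes and dropped 5700. The fit used limma 3.58.1 in R 4.3.3 (statmod 1.5.0), with 10 group means and a term for run 2, 13 residual degrees of freedom and moderated variances; each comparison was adjusted by the Benjamini-Hochberg method at 0.05. The number of arrays limits the precision. The script was tested on simulated data.

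The members, the 61-gene list, the marker lists and the motifs were chosen with earlier results of these data known. Named beside the members were the targeted genes, the 3 largest called rises and falls of that list with tunicamycin in wild-type cells, its genes called with AP or in a difference between responses (at most 3 each), and the nearest profiles; 1 gene that this rule names is not reported here. Alternatives changed the normalization, background correction, probe choice, filter, batch terms, arrays in the fit and variance model, and left out each array in turn; scan session and slide 4 terms were added after seeing the data.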

Additional observations from a re-analysis of the deposited data

Results flagged for a closer look

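The responses to tunicamycin of 16 gene and genotype pairs differed from the wild-type response by the test of the difference itself (limma, adjusted p under 0.05), all of them smaller. In Perk-null cells these log2 differences were -1.98 for Herpud1, -1.04 for Derl1, -0.74 for Derl2, -5.06 for Derl3, -2.71 for Sel1l, -1.27 for Syvn1, -1.36 for Edem1 and -0.92 for Edem2. In Atf4-null cells they were -1.30 for Derl1, -0.61 for Derl2, -1.75 for Sel1l and -0.68 for Selenos. In eIF2a A/A cells they were -1.96 for Herpud1, -0.84 for Derl1, -2.35 for Sel1l and -0.67 for Edem1. The calls of Derl2 in Perk-null cells, of Derl2 and Selenos in Atf4-null cells and of Edem1 in eIF2a A/A cells were lost in some other fits. Derl3 in Atf4-null and eIF2a A/A cells is left out, as its signals there were not well above background. Among 20 sets of 4 wild-type arrays, 1 treated and 1 untreated set per gene, no array stood apart from the rest by Dixon's ratio, which by chance marks about 1 set in 20. Each set held 2 arrays of run 1 and 2 of run 2, so a gap between runs can hide an array that stands apart.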

How the results depend on the processing

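Of the 1390 member changes under settings other than leave-outs, 1296 kept their direction and side of the threshold, and no called change turned its sign. Uncalled changes turned their sign 23 times there and 16 times when 1 array was left out, and none was called then; the cause was not tested. Under quantile normalization the difference of the Atf4-null from the wild-type response became 0.14 for Herpud1 (-0.48 in the report), 0.30 for Syvn1 and 0.05 for Edem1, the Perk-null response of Edem2 0.01 and the AP response of Edem1 -0.01. There the AP response of Edem2 was 0.00. With normexp correction untreated Atf4-null against wild-type cells became 0.16 for Derl1 and 0.10 for Selenos, untreated Perk-null Edem2 0.03 and the AP response of Derl2 -0.00. Without a run term untreated Atf4-null cells gave 0.05 for Derl2, -0.21 for Edem1 and 0.09 for Selenos, and untreated Perk-null cells 0.13 for Edem1. In a fit of the compared arrays alone, and equally with same-run wild-type arrays, untreated Atf4-null cells gave 0.04 for Derl1 and -0.05 for Syvn1, and untreated Perk-null cells 0.03 for Edem2. With wild-type arrays of run 1 the wild-type response of Edem3 was -0.26 and the eIF2a A/A difference of Syvn1 0.06, and with scan session as a random block the Atf4-null response of Edem3 was 0.01. Leave-outs that turned a sign ranged in untreated Atf4-null cells from -0.12 to 0.01 for Derl1, -0.24 to 0.07 for Derl2, -0.42 to 0.14 for Edem3 and -0.22 to 0.06 for Selenos, and in untreated Perk-null cells from -0.07 to 0.03 for Edem2 and -0.09 to 0.17 for Syvn1. Among responses the ranges were -0.10 to 0.04 for Edem2 (Perk-null), -0.55 to 0.02 for Edem3 (Atf4-null), -0.03 to 0.22 for Edem3 (wild type) and -0.06 to 0.18 for Edem1 (AP).

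The count of members called in the Perk-null response, 7, was 4 with normexp background correction, 4 without a run term and 0 in a fit of the compared arrays alone, which called 0 genes in all. The Atf4-null response, 8, was also 0 in such a fit, again with 0 genes called. The response to AP, 1, was 4 in that fit and 3 with scan session as a random block. The difference of the Atf4-null from the wild-type response, 5, was 3 under quantile normalization, 3 without a run term and 3 in a fit of the compared arrays alone. Untreated Atf4-null against wild-type cells, 2, gave 1 in that fit and 1 with probes well above background on all arrays. The paralog difference Edem2 minus Edem3 was 0.63 with normexp correction (exact permutation, adjusted p = 0.0571).

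Leaving out each array in turn gave 9 to 9 members in the wild-type, 3 to 6 in the Perk-null, 7 to 8 in the Atf4-null, 7 to 9 in the eIF2a A/A and 1 to 1 in the AP response. The differences from the wild-type response gave 7 to 8 (Perk-null), 4 to 7 (Atf4-null) and 4 to 5 (eIF2a A/A), and untreated cells 5 to 7 (Perk-null) and 2 to 3 (Atf4-null). Paralog differences were 0.56 to 0.76 for Derl1 minus Derl2, 5.19 to 6.40 for Derl3 minus Derl1, 5.89 to 7.03 for Derl3 minus Derl2, 1.06 to 1.41 for Edem1 minus Edem2, 1.92 to 2.14 for Edem1 minus Edem3 and 0.71 to 0.96 for Edem2 minus Edem3; 13 of these 48 fits missed the threshold.

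Same-numbered treated and untreated arrays correlated in their deviations at -0.47 in Perk-null cells. In the other genotypes the values ran from -0.01 to 0.07 (Atf4-null) and showed no clear shared deviation. With 2 arrays per group, crossing the numbers only turns the sign, so Perk-null arrays of the same slide correlated at 0.47. They thus shared a deviation that the main fit did not take into account. Whether the samples were paired cannot be told from these correlations, and same-numbered Perk-null arrays lay on different slides. In run 1 same-numbered Atf4-null and wild-type arrays of 1 treatment were scanned together and correlated at 0.47 (treated) and 0.27 (untreated). With scan session as a random block these became called: the Herpud1 difference (adjusted p = 0.0146) and untreated Sel1l (adjusted p = 0.0141) in Atf4-null cells, the Sel1l response in Perk-null cells (adjusted p = 0.0424), the Derl2 difference and the Edem3 response in eIF2a A/A cells (adjusted p = 0.03 and 0.0481), and Sel1l and Selenos with AP (adjusted p = 0.00824 and 0.0372). With a replicate block the members called were 9, 6, 8, 9 and 1 in the wild-type, Perk-null, Atf4-null, eIF2a A/A and AP responses, 8, 5 and 5 in the differences, and 7 and 3 in untreated Perk-null and Atf4-null cells. Pairing the Perk-null arrays by slide, the crossed numbers, gave 6 members. Dim signal limits Derl3, on 15 of 24 arrays well above background.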
